A study of Mus musculus with 28 samples.

Results

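The 10 genes described here are those by which macrophage activation is usually read: Arg1, Mrc1, Chil3, Retnla, Irf4, Il4ra and Cd163 on the side called alternative, and Nos2, Acod1 and Ptgs2 on the side called classical. They were chosen by name, and each was found as a single row in all 3 deposited tables, among 17752 gene symbols in the liver table and 56748 and 21959 Ensembl genes in the tables for the cultured cells. RNA was sequenced from 16 livers and 12 cultures of bone marrow-derived macrophages (BMDMs) to see how NFATc3, a calcineurin-dependent transcription factor, and ASK1, a stress-activated kinase encoded by Map3k5, act in macrophages during steatohepatitis. All livers came from male mice that were 8 weeks old and ate a diet without methionine and choline for 4 weeks. Per the labels, the 4 liver groups of 4 libraries were Lyz2-Cre controls, a macrophage knockout of NFATc3 (NFATc3-MKO), a macrophage knockout of ASK1 (ASK1-MKO) and a double knockout (MDKO). The BMDMs were grown from marrow for 7 days in 30% L929-conditioned medium, which supplies macrophage growth factor, and no stimulus or diet is named for them. Cells labelled NFATc3-MKI carried a macrophage knock-in of NFATc3 and those labelled ASK1-MKI one of ASK1. Each knock-in had its own Lyz2-Cre controls, with 3 libraries in each of the 4 culture groups. Lyz2-Cre acts in Lyz2-expressing myeloid cells, which include neutrophils as well as macrophages.

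As background, interleukin-4 and interleukin-13 bind a receptor that contains the Il4ra chain and act through STAT6 to switch on Arg1, Mrc1, Chil3 and Retnla, with the demethylase Kdm6b and the factor Irf4 as further parts of the same programme. Interferon and microbial products act through NF-kB and other factors to switch on Nos2, Acod1 and Ptgs2, whose enzymes make nitric oxide, itaconate and prostaglandin precursors. ARG1 and NOS2 draw on the same substrate, arginine. In liver this reading has a known difficulty, since hepatocytes hold most Arg1 as an enzyme of the urea cycle, sinusoidal endothelium also makes Mrc1, and Cd163 belongs largely to Kupffer cells, the resident macrophages of the liver.

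Levels are given as CPM, the count over the library's total after edgeR's scaling within each table, in the order of the replicate numbers. Library totals lay between 20601168 and 30834547 counts for 15 livers, with MDKO replicate 3 at 8912117, and between 7693464 and 9398163 for the NFATc3-MKI set and 16051951 and 18728508 for the ASK1-MKI set. The targeted genes did not bear out the labels. Nfatc3 was at 36.3 ± 3.94 CPM (SD, n = 4) in Lyz2-Cre livers against 28.3 ± 5.78 CPM under the NFATc3-MKO label (log2 difference −0.36 ± 0.14 SE, edgeR's quasi-likelihood test, adjusted p = 0.119). Map3k5 was higher in livers labelled ASK1-MKO than in controls (46.2 ± 6.12 against 30.9 ± 2.21 CPM, adjusted p = 0.0262 by edgeR), and livers labelled MDKO stood at the control level of both genes. In the cultures, Nfatc3 was lower in cells labelled NFATc3-MKI than in their controls (80.9 ± 8.02 against 97.2 ± 7.31 CPM), and Map3k5 was lower in cells labelled ASK1-MKI (26.9 ± 0.349 against 30.1 ± 0.174 CPM). Transcripts of whole liver come from many cells without the deletion, and the part of the gene that was deleted or added is not given. Group names below are therefore those of the labels. The labels do not say that libraries of a group came from separate mice or cultures, so p-values measure the spread between these libraries, which may be technical.

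The liver values of the 10 genes are described first, by role. Arg1 (ENSMUSG00000019987, chromosome 10, 24915221 to 24927484 in mm10) splits arginine into ornithine and urea. It was counted at 1841, 1094, 1583 and 1718 CPM in Lyz2-Cre livers and at 1225, 814, 1177 and 957 CPM in livers labelled NFATc3-MKO. In livers labelled ASK1-MKO it was at 1298, 1639, 855 and 1311 CPM, and in livers labelled MDKO at 1732, 1170, 1452 and 1642 CPM. Lyz2-Cre replicate 2 lay among the NFATc3-MKO values, and the ranges of all 4 groups overlapped. Mrc1 (ENSMUSG00000026712, chromosome 2, 14229392 to 14332057), the mannose receptor, was at 49.1, 51.9, 61.0 and 51.8 CPM in Lyz2-Cre livers and 50.5, 35.8, 29.7 and 34.5 CPM in livers labelled NFATc3-MKO. It was at 50.9, 49.4, 49.2 and 30.6 CPM in livers labelled ASK1-MKO and at 32.7, 67.2, 51.4 and 68.3 CPM in livers labelled MDKO. NFATc3-MKO replicate 1 stood at the control level while the other 3 of its group were below every control. The microRNA gene Mir511 lies within Mrc1.

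Cd163 (ENSMUSG00000008845, chromosome 6, 124304656 to 124330527), the scavenger receptor for haemoglobin bound to haptoglobin, was at 12.7, 15.6, 28.6 and 13.8 CPM in Lyz2-Cre livers and at 12.0, 2.38, 5.07 and 4.99 CPM in livers labelled NFATc3-MKO. It was at 7.90, 18.9, 13.1 and 8.06 CPM in livers labelled ASK1-MKO and 9.34, 27.4, 24.8 and 28.1 CPM in livers labelled MDKO. Every NFATc3-MKO liver was below every control, though replicate 1 only just, while MDKO replicate 1 fell below the NFATc3-MKO maximum. Il4ra (ENSMUSG00000030748, chromosome 7, 125552120 to 125579474), the receptor chain for interleukin-4 and interleukin-13, was at 23.2, 23.1, 23.8 and 20.6 CPM in Lyz2-Cre livers and 15.8, 20.7, 19.2 and 19.8 CPM in livers labelled NFATc3-MKO. It was at 18.5, 20.3, 18.8 and 16.3 CPM in livers labelled ASK1-MKO and 21.2, 21.6, 22.7 and 22.3 CPM in livers labelled MDKO. The Il4ra values spread little within each group. All livers labelled ASK1-MKO lay below all MDKO livers, where 18.1% of all genes tested had groups without overlap. EdgeR called Il4ra in neither comparison of MDKO with a single knockout (adjusted p = 0.1965 for NFATc3-MKO and 0.167 for ASK1-MKO). The antisense gene Gm44876 overlaps Il4ra, and whether the counting used strand is not given in the sources used here.

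Other alternative genes were low in liver. Chil3 (ENSMUSG00000040809, chromosome 3, 106147554 to 106167564), the secreted chitinase-like protein Ym1, was at 0.402, 1.66, 0.0935 and 0.412 CPM in Lyz2-Cre livers and 0.740, 7.45, 2.18 and 2.35 CPM in livers labelled NFATc3-MKO. It was at 1.06, 0.233, 0.272 and 0.276 CPM in livers labelled ASK1-MKO and 0.185, 1.19, 0.230 and 0.375 CPM in livers labelled MDKO. Replicate 2 was the highest of its group in 3 of the 4 groups, the exception being ASK1-MKO. Irf4 (ENSMUSG00000021356, chromosome 13, 30749226 to 30766976), a transcription factor of lymphocytes and of alternative activation, lay between 0.201 and 1.10 CPM in all 16 livers, with all 4 groups overlapping. Retnla (ENSMUSG00000061100, chromosome 16, 48842551 to 48844461), the resistin-like protein Fizz1, had 11 counts in ASK1-MKO replicate 2 (0.367 CPM), 6 in NFATc3-MKO replicate 4 (0.214 CPM) and 1 each in NFATc3-MKO replicate 2 and Lyz2-Cre replicate 1. It was at 0 in the other 12 livers, and the 4 MDKO livers with no count allow up to 0.0381 CPM, taking 3 counts over the group as the limit.

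The 3 classical genes were near the limit of detection in most livers. Acod1 (ENSMUSG00000022126, chromosome 14, 103046977 to 103056573), which makes itaconate, was at 0.0402, 1.83, 0.140 and 0.258 CPM in Lyz2-Cre livers and 0.129, 8.21, 0.814 and 1.21 CPM in livers labelled NFATc3-MKO. It was at 0.680, 0, 0.102 and 0.118 CPM in livers labelled ASK1-MKO and 0, 0.941, 0 and 0.125 CPM in livers labelled MDKO. Nos2 (ENSMUSG00000020826, chromosome 11, 78920787 to 78960254), the inducible nitric oxide synthase, had 15 counts in the 4 Lyz2-Cre livers together, 41 in those labelled NFATc3-MKO, 2 in ASK1-MKO and 5 in MDKO. Ptgs2 (ENSMUSG00000032487, chromosome 1, 150100031 to 150108227), the inducible cyclooxygenase, had 5, 37, 5 and 2 counts in the same order. In the Lyz2-Cre, NFATc3-MKO and MDKO groups, replicate 2 alone held most of these reads, with Nos2 at 0.595, 0.983 and 0.164 CPM and Ptgs2 at 0.127, 1.13 and 0.0818 CPM. The same 3 livers had the highest summed neutrophil markers of their groups (14.3, 47.4 and 10.8 CPM) and the highest summed pan-macrophage markers (377, 758 and 319 CPM). The part of either cell type in these values was not tested.

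**Figure D1:**
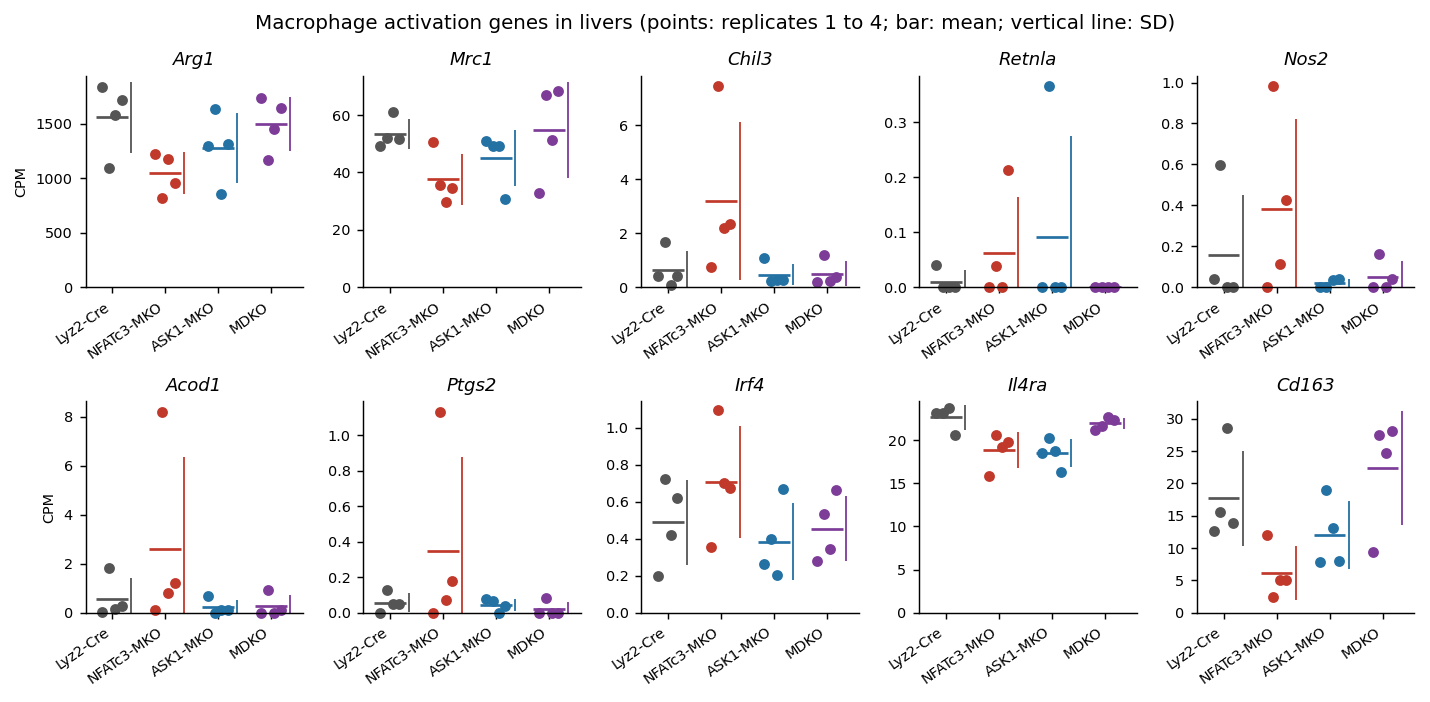
CPM of the 10 macrophage activation genes in each of the 16 livers on a linear axis from 0, 1 panel a gene, with groups along the horizontal axis, points for libraries, a bar at the group mean and a vertical line of 1 SD either side (cut at 0). Cd163 is lower in all 4 livers labelled NFATc3-MKO than in the 4 Lyz2-Cre livers, and replicate 2 of 3 groups stands high for Chil3, Acod1, Nos2 and Ptgs2.

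Per kilobase of merged exon, the level of Arg1 in Lyz2-Cre livers was 699.8 ± 147 CPM per kb and that of Mrc1 8.39 ± 0.812, with no overlap between them. Il4ra at 3.78 ± 0.236 and Cd163 at 3.24 ± 1.35 CPM per kb came next and overlapped each other. Chil3, Acod1, Irf4, Nos2, Retnla and Ptgs2 followed, and each overlapped its neighbour in that order. The order began Arg1, Mrc1 in all 4 liver groups. Below them it differed by group: Cd163 (4.10 ± 1.61 CPM per kb) had a mean above Il4ra (3.66 ± 0.113) in livers labelled MDKO, with overlapping ranges, and Chil3 (1.95 ± 1.80) had a mean above Cd163 (1.12 ± 0.758) in livers labelled NFATc3-MKO, again with overlap.

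The question of the comparison between livers labelled NFATc3-MKO and Lyz2-Cre is what loss of NFATc3 in myeloid cells does to the liver. Cd163 was the member that fell, to a mean of 6.12 ± 4.14 CPM from 17.7 ± 7.39 CPM (log2 change −1.52 ± 0.44 SE, adjusted p = 0.0429 by edgeR's quasi-likelihood test). The groups did not overlap for Cd163, as for 12.8% of all genes tested. Of the 7 members that passed the filter on low counts, 1 was called lower and 0 higher, against 8.45% of all genes tested that were called in either direction and 4.67% that were called lower. At an unadjusted p under 0.05 there were 5 members, where 26.6% of all genes were. DESeq2 called 3 members and 12.9% of all genes, and limma's voom 4 and 19.6%. Retnla, Nos2 and Ptgs2 did not pass the filter. The Cd163 call rests on the 16 livers together: it held without NFATc3-MKO replicate 1, ASK1-MKO replicate 2 or MDKO replicate 1, and with each of the other 13 left out the adjusted p was 0.0503 to 0.165. It was lost as well without the filter (0.0894) and with only the 2 groups compared (0.0917). The smallest change was without Lyz2-Cre replicate 3 (−1.19). In bulk liver, fewer cells of a type and less RNA per cell cannot be told apart.

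Markers of other cells moved in this comparison as well. Of 8 Kupffer cell markers, all of them detected in every liver group, the receptor Clec4f fell from 84.0 ± 21.4 to 38.0 ± 12.4 CPM and the complement component C6 from 29.2 ± 3.68 to 15.5 ± 2.61 CPM (adjusted p = 0.0305 and 0.00353 by edgeR). The summed level of the 8 was 420 to 624 CPM in Lyz2-Cre livers and 348 to 476 CPM in livers labelled NFATc3-MKO. The Clec4f call was lost without Lyz2-Cre replicates 2 (log2 change −1.07), 3 (−1.01) or 4 (−1.18), or without NFATc3-MKO replicates 2 (−0.98) or 3 (−1.07). Of 8 pan-macrophage markers 0 were called by edgeR (2 at an unadjusted p under 0.05), with sums of 133 to 377 and 160 to 758 CPM. The neutrophil calgranulins S100a8 and S100a9 rose, from 1.48 ± 1.52 to 6.95 ± 5.07 CPM and from 1.91 ± 1.52 to 10.5 ± 8.42 CPM, and the summed neutrophil markers were 4.34 to 14.3 and 8.88 to 47.4 CPM. Without NFATc3-MKO replicate 2 both calls were lost (log2 changes 1.60 and 1.76, adjusted p = 0.118 and 0.0879 by edgeR), and they were lost as well without any of Lyz2-Cre replicates 1, 3 and 4 or NFATc3-MKO replicate 3 (1.91 to 2.45). S100a8 was lost also without MDKO replicate 4 (2.21).

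Of 8 markers of sinusoidal endothelium, cells that also make Mrc1, 3 fell and 0 rose: Clec4g (28.8 ± 4.55 to 18.0 ± 2.78 CPM), Gpr182 (20.1 ± 3.83 to 13.2 ± 2.08 CPM) and Fcgr2b (60.1 ± 6.51 to 39.7 ± 6.31 CPM). Their sums did not overlap, at 239.5 to 308 CPM in Lyz2-Cre livers and 159.9 to 238 CPM in livers labelled NFATc3-MKO. Of 10 hepatocyte markers, from the cells that hold most Arg1, the factor Hnf4a fell from 472 ± 15.3 to 322 ± 33.6 CPM and the sums were 116651 to 151433 and 86852 to 130439 CPM. Of 5 tested B and plasma cell markers Jchain and Igkc rose, with sums of 7.20 to 12.1 and 17.5 to 55.8 CPM, which did not overlap. Of 6 tested cholangiocyte markers Spp1 and Epcam rose (sums 63.8 to 130.4 and 95.7 to 401 CPM), and of 8 stellate cell and fibroblast markers Acta2 rose (608 to 749 and 463 to 1098 CPM). The calls of Hnf4a, Jchain and Igkc held with each liver left out, and those of Clec4g, Gpr182, Fcgr2b, Spp1, Epcam and Acta2 were lost in 6, 12, 11, 5, 6 and 6 of the 16 fits. Of the monocyte, dendritic cell, T and NK cell, erythroid, and eosinophil, basophil and mast cell lists edgeR called 0 markers, with 1 of each at an unadjusted p under 0.05. Whether these cell types take part in the member values was not tested.

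The other members did not pass in this comparison. Chil3 had a log2 difference of 2.28 ± 0.76 (adjusted p = 0.0700 by edgeR, means 3.18 and 0.641 CPM), Acod1 of 2.16 ± 1.14 (0.235) and Irf4 of 0.53 ± 0.45 (0.478). Arg1 differed by −0.58 ± 0.20 (adjusted p = 0.0853 by edgeR), Mrc1 by −0.51 ± 0.22 (0.145) and Il4ra by −0.27 ± 0.10 (0.116). Chil3 depended on the libraries and the tool: DESeq2 gave an adjusted p of 0.0251, voom 0.0109 and edgeR without Lyz2-Cre replicate 2 a log2 difference of 3.38 (0.0227), but without NFATc3-MKO replicate 2 the difference was 1.42 (0.231). Without NFATc3-MKO replicate 1 it was called as well (adjusted p = 0.0296 by edgeR), and Mrc1 was called by voom (0.0333). Arg1 was called by DESeq2 (0.0488), by voom (0.00977) and by edgeR without Lyz2-Cre replicate 2 (0.0369), each time lower in livers labelled NFATc3-MKO. For the 3 genes under the filter exact permutation over the livers (two-sided, log2 CPM, prior count 2) gave p = 0.371 for Nos2, 0.371 for Ptgs2 and 0.714 for Retnla (70 assignments, smallest possible p 0.0286).

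In livers labelled ASK1-MKO, edgeR called 0 of the 7 members against Lyz2-Cre, where 8.46% of all genes were called. At an unadjusted p under 0.05 there was 1 (23.4% of all genes), DESeq2 called 0 (12.3%) and voom 1 (19.7%). That gene was Il4ra, at a mean of 18.5 ± 1.61 against 22.7 ± 1.42 CPM (log2 difference −0.29 ± 0.10, adjusted p = 0.0914 by edgeR and 0.0249 by voom). All 4 livers labelled ASK1-MKO were below all 4 controls, a separation seen in 18.2% of genes tested here. The median log2 difference of the 7 members was −0.35, against −0.03 over all genes. For Chil3 and Acod1 the control mean was raised by Lyz2-Cre replicate 2, at 1.66 and 1.83 CPM. The other controls were at 0.0935 to 0.412 CPM for Chil3 and 0.0402 to 0.258 CPM for Acod1. Cd163 differed by −0.56 ± 0.43 (0.472) and Arg1 by −0.29 ± 0.20 (0.423).

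Between livers labelled MDKO and Lyz2-Cre livers edgeR called 0% of all genes, with 0.263% at an unadjusted p under 0.05, and 0 of the 7 members reached an unadjusted p under 0.05 or were called by DESeq2 or voom. With the replicate number as a block edgeR also called 0 genes, both in the fit of all 16 livers (0.293% at an unadjusted p under 0.05) and in a fit of these 2 groups alone (1.46%). Chance alone would put about 1 in 20 genes under that p, and each of these fits put fewer there. Same-numbered libraries of the 2 groups deviated together (r = 0.24 to 0.53), which the fit without a block does not use. Why so few genes came under it was not tested, and the 0 calls do not show that the groups are alike. Cd163 stood at 22.4 ± 8.82 CPM against 17.7 ± 7.39, Mrc1 at 54.9 ± 16.7 against 53.5 ± 5.17, Arg1 at 1499 ± 249 against 1559 ± 327 and Il4ra at 21.9 ± 0.678 against 22.7 ± 1.42. The 3 comparisons with Lyz2-Cre share those 4 livers, so their values are set side by side only: for Cd163 the log2 differences were −1.52 for NFATc3-MKO, −0.56 for ASK1-MKO and 0.34 for MDKO.

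The direct comparison of livers labelled MDKO and NFATc3-MKO gave 1 member higher and 0 lower, where 7.36% of all genes were called and 4.06% called higher. Cd163 was higher in livers labelled MDKO by 1.86 ± 0.45 on the log2 scale (adjusted p = 0.0209 by edgeR), with overlap at MDKO replicate 1. The call was lost without MDKO replicates 2 (adjusted p = 0.0527), 3 (0.0622) or 4 (0.0759), or without NFATc3-MKO replicates 3 (0.0734) or 4 (0.0532), and with only the 2 groups compared (0.0671), by edgeR. Of 8 Kupffer cell markers, 2 were also called higher and 0 lower, C6 by 1.00 ± 0.15 and Clec4f by 1.31 ± 0.30. The call of Clec4f was lost without MDKO replicate 4 (1.15) or NFATc3-MKO replicate 3 (1.24). On other marker lists S100a8, S100a9, Retnlg, Igkc, Jchain, Acta2 and Spp1 were called lower, and Hnf4a, Clec4g and Ccr3 higher. Apart from Hnf4a, each of these calls was lost in 3 to 10 fits with a liver left out. Chil3 differed by −2.56 ± 0.79 and had an adjusted p of 0.0551 by edgeR, 0.0109 by DESeq2 and 0.0203 by voom. Without NFATc3-MKO replicate 2 its difference was −1.69 (0.172), and edgeR called it without Lyz2-Cre replicate 2 (0.0389), MDKO replicate 2 (0.0414) or NFATc3-MKO replicate 1 (0.0250). Acod1 differed by −3.03 ± 1.25 (adjusted p = 0.137 by edgeR), which was −1.17 without NFATc3-MKO replicate 2 and −5.46 without MDKO replicate 2. Mrc1 differed by 0.55 ± 0.22 (adjusted p = 0.122 by edgeR), and was called by voom (0.0138) and by edgeR without MDKO replicate 1 (0.0284) or NFATc3-MKO replicate 1 (0.0478). Arg1 differed by 0.52 ± 0.20 (adjusted p = 0.117 by edgeR and 0.0206 by voom). Il4ra differed by 0.22 ± 0.10 and was not called (adjusted p = 0.1965 by edgeR).

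Against livers labelled ASK1-MKO, those labelled MDKO had 0 members called by edgeR, where 7.72% of all genes were called. At an unadjusted p under 0.05 there was 1 member (22.8% of all genes), DESeq2 called 0 (11.2%) and voom 2 (19.2%). Il4ra was higher in all 4 MDKO livers than in all 4 ASK1-MKO livers, a separation seen in 18.1% of genes tested here (0.25 ± 0.10, adjusted p = 0.167 by edgeR and 0.0338 by voom). Livers labelled NFATc3-MKO and ASK1-MKO differed at 12.8% of all genes, 7.15% being higher in the former, and at 1 of 7 members. That member was Chil3, higher by 2.78 ± 0.77 on the log2 scale (adjusted p = 0.0276 by edgeR) though the groups overlapped. It was lost without ASK1-MKO replicates 2 (0.0817), 3 (0.0746) or 4 (0.0700), or without NFATc3-MKO replicate 2 (1.92, adjusted p = 0.0976 by edgeR). In the same comparison S100a8 and S100a9 rose by 3.31 ± 0.67 and 3.35 ± 0.68, and Retnlg, a resistin-like gene of neutrophils and a paralog of Retnla, by 2.50 ± 0.58. They were among 4 of 5 tested neutrophil markers that rose, with 0 that fell. Other cell lists moved too: 4 of 4 tested erythroid, 3 of 6 cholangiocyte and 2 of 5 B and plasma cell markers rose. So did Lyz2, Ccr2, Itgax, Cd8a and Acta2, and 2 of 10 hepatocyte markers fell (Hnf4a and Tat). The calls of Lyz2, Ccr2 and Itgax were lost in 14, 13 and 14 fits with a liver left out. The part of these cells in the Chil3 values was not tested. Of 8 Kupffer cell markers Marco rose, a call lost in 12 fits with a liver left out, and C6 fell. Acod1 differed by 3.52 ± 1.26 with an adjusted p of 0.0728, which was 0.0295 without NFATc3-MKO replicate 1 and 0.377 without replicate 2 (1.66) by edgeR. Cd163 differed by −0.97, and was called without NFATc3-MKO replicate 1 (−1.55, adjusted p = 0.0195 by edgeR).

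The interaction compares the difference between MDKO and NFATc3-MKO with that between ASK1-MKO and Lyz2-Cre, that is, whether the ASK1 label went with another change when the NFATc3 label was present. It was called, as a positive value, for Cd163 and Il4ra, 2 of 7 members, where 16.2% of all genes were called and 8.17% were positive. For Cd163 it was 2.42 ± 0.62 on the log2 scale (adjusted p = 0.0139 by edgeR) and it held with each of the 16 livers left out in turn, at 2.09 to 2.97. For Il4ra it was 0.51 ± 0.15 (0.0260), and it was lost without ASK1-MKO replicate 4 (0.0555), Lyz2-Cre replicate 3 (0.0576), MDKO replicates 3 (0.0509) or 4 (0.0517), or NFATc3-MKO replicate 1 (0.0536). Arg1 at 0.81 ± 0.29 (0.0648) and Mrc1 at 0.79 ± 0.31 (0.0870) did not pass by edgeR, while voom gave 0.0100 and 0.00543 and DESeq2 0.0403 for Arg1. With edgeR Arg1 was called without Lyz2-Cre replicate 2 (0.0292) or ASK1-MKO replicate 2 (0.0420), and Mrc1 without MDKO replicate 1 (0.0181) or NFATc3-MKO replicate 1 (0.0408). Of 8 Kupffer cell markers, Clec4f (1.67 ± 0.42) and C6 (0.77 ± 0.21) were also called positive and 0 negative, C6 not without MDKO replicate 2 (0.70). On other marker lists Gpr182, Fcgr2b, Ccr3 and Alas2 were called positive and Igkc negative. The calls of Ccr3 and Igkc were lost in 12 and 7 fits with a liver left out.

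**Figure D2:**
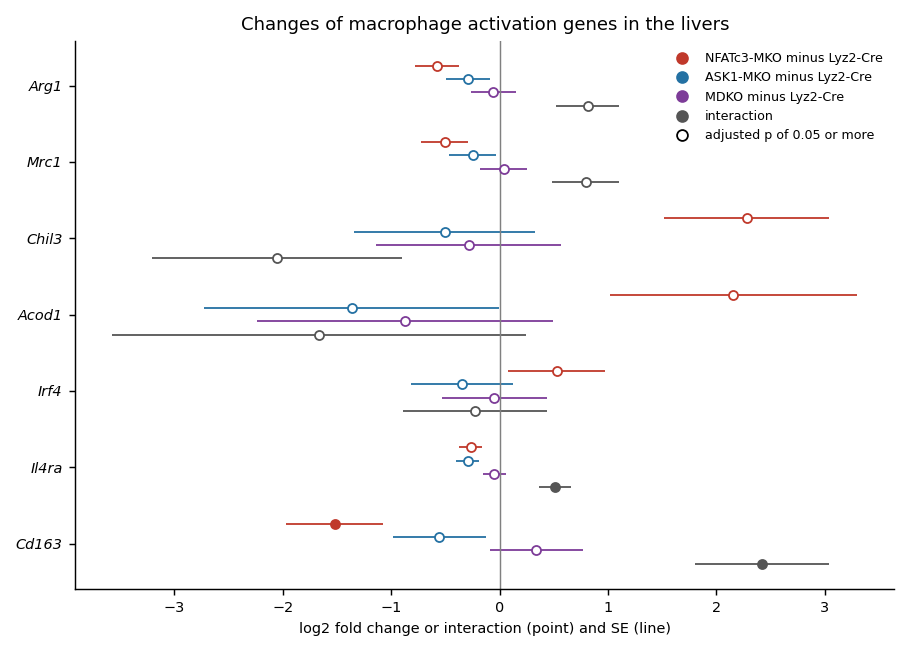
Log2 differences of the 7 tested macrophage activation genes in the liver comparisons, with bars of 1 SE and filled points where edgeR's adjusted p is under 0.05. Cd163 is at −1.52 for NFATc3-MKO against Lyz2-Cre and at 0.34 for MDKO against Lyz2-Cre.

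Across the 16 livers, the genes whose log2 CPM ran most nearly parallel to each member were taken from 11891 genes with a mean of at least 1 CPM. These correlations describe livers that share groups, depth and cell make-up, and carry no test. Cd163 ran with Clec4f (Pearson r = 0.94) and with Dysf (0.92), Mrc1 with the coagulation factor F8 (0.97) and the endothelial receptor Adgrl4 (0.95), and Arg1 with Ahcy (0.98), the enzyme that splits S-adenosylhomocysteine, and Fh1 (0.95). Chil3 ran with S100a8 (0.96) and S100a9 (0.94), and Acod1 with the C-type lectins Clec4d (0.96) and Clec4e (0.96). Irf4 ran with Sash3 (0.88) and Hpgds (0.88), and Il4ra with Cnnm4 (0.92) and Klhl36 (0.89).

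The surrounding pathways changed at few genes in the livers, where 8.45% of all genes were called for NFATc3-MKO and 8.46% for ASK1-MKO. Of 22 tested genes of classical signalling and products, 2 rose and 0 fell in livers labelled NFATc3-MKO, the feedback inhibitor Socs3 (7.47 ± 1.32 against 3.52 ± 1.24 CPM, log2 change 1.08 ± 0.27) and the interferon-gamma receptor chain Ifngr2 (29.6 ± 3.19 against 20.3 ± 2.67 CPM, 0.54 ± 0.14). Socs3 was lost without Lyz2-Cre replicates 1 (1.03), 3 (0.99) or 4 (0.98), and Ifngr2 without Lyz2-Cre replicates 3 (0.49) or 4 (0.49) or NFATc3-MKO replicate 2 (0.50). The median of the list was 0.31 against 0.03 over all genes. In livers labelled ASK1-MKO Socs3 alone of the 22 rose (1.16 ± 0.27), a call lost without Lyz2-Cre replicates 3 (1.06) or 4 (1.05). The interaction for Socs3 was −2.02 ± 0.38 (adjusted p = 0.00201 by edgeR), and livers labelled MDKO were at 4.07 ± 1.30 CPM.

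Of 11 tested genes of interleukin-4, interleukin-13 and STAT6 signalling, 0 were called in livers labelled NFATc3-MKO (1 at an unadjusted p under 0.05) and 2 rose in livers labelled ASK1-MKO. These were the coactivator Ppargc1b (5.64 ± 1.64 against 2.00 ± 0.206 CPM, log2 change 1.49 ± 0.30) and Kdm6b (15.1 ± 1.80 against 10.5 ± 1.16 CPM, 0.52 ± 0.12), the latter lost without Lyz2-Cre replicate 4 (0.47) or without replicate 1 of ASK1-MKO (0.47). Among 12 other alternative products, 0 were called for NFATc3-MKO (0 at an unadjusted p under 0.05), and the arginine transporter Slc7a2 rose for ASK1-MKO (725 ± 232 against 314 ± 46.0 CPM, 1.21 ± 0.30), lost without ASK1-MKO replicate 2 (1.02). Of 16 genes of arginine and nitric oxide metabolism, 2 fell and 0 rose for NFATc3-MKO, the urea cycle enzymes Asl and Ass1. Asl was at 237 ± 51.0 against 486 ± 157 CPM (−1.04 ± 0.25), a call lost without Lyz2-Cre replicates 1 (−0.91), 3 (−0.95) or 4 (−1.03), and Ass1 at 1674 ± 334 against 2904 ± 937 CPM (−0.79 ± 0.24), a call lost in 11 of the 16 fits with a liver left out. For ASK1-MKO the ornithine decarboxylase Odc1 fell (−0.74 ± 0.17), lost without Lyz2-Cre replicates 3 (−0.66) or 4 (−0.64), or without replicate 2 of ASK1-MKO (−0.66), and Nags fell (−0.61 ± 0.18), lost in 10 fits. Of 13 prostaglandin genes 0 were called for either label, with 3 and 1 at an unadjusted p under 0.05. For MDKO against Lyz2-Cre, edgeR called 0 genes of any of these lists, as it called 0 of all genes.

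The cultured cells were checked against macrophage markers before their members were read. Lyz2 stood at 28102 ± 1330 CPM in the controls of the ASK1-MKI set and at 391 ± 26.8 CPM in the controls of the NFATc3-MKI set, and the macrophage antigen Adgre1 at 2691 ± 27.9 and 31.2 ± 1.12 CPM. The receptor kinase Mertk was at 208 ± 5.98 CPM in the former, while in the latter it had 2 counts over 3 libraries. The summed 8 pan-macrophage markers were 33616 to 35956 CPM and 1524 to 1628 CPM, with none at 0 in either set. The cells labelled as BMDMs in the NFATc3-MKI set were thus low in these markers, and Marco, Timd4 and Vsig4 were at 0 in them. The 2 sets were deposited as separate tables with different gene lists, and each was tested within its own table.

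Per kilobase, the controls of the ASK1-MKI set had Acod1 highest at 481 ± 12.6 CPM per kb, followed by Chil3 (23.0 ± 1.67), Il4ra (15.1 ± 0.600), Mrc1 (12.8 ± 0.627) and Nos2 (8.48 ± 0.561), none overlapping the next. Ptgs2 (7.32 ± 0.187) and Arg1 (7.22 ± 0.557) overlapped each other, and Cd163 (0.643 ± 0.154) and Irf4 (0.307 ± 0.101) were lowest above Retnla, which had no count. The controls of the NFATc3-MKI set had another order: Ptgs2 at 42.9 ± 4.24 CPM per kb, Nos2 at 29.4 ± 1.66, Acod1 at 10.4 ± 2.84, Il4ra at 1.25 ± 0.0993, Irf4 at 0.567 ± 0.0795 and Arg1 at 0.302 ± 0.178, none overlapping the next. Mrc1 had 2 counts there, and Retnla, Chil3 and Cd163 had none, which allows up to 0.122 CPM over the group.

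In cells labelled NFATc3-MKI, all 3 classical members and Il4ra rose. Ptgs2 was at 214, 199 and 176 CPM in the controls and 563, 682 and 575 CPM in cells labelled NFATc3-MKI, a 3.09-fold rise (log2 change 1.63 ± 0.10, adjusted p = 1.13e-11 by edgeR). Acod1 was at 22.1, 35.8 and 24.1 CPM in the controls and 126, 170 and 188 CPM with the knock-in label, a 5.87-fold rise (2.55 ± 0.21, adjusted p = 3.54e-05 by edgeR). For both enzymes the lowest knock-in library lay far above the highest control. Nos2 was at 138, 126 and 125 CPM and at 152, 149 and 162 CPM (0.25 ± 0.09, adjusted p = 0.0263 by edgeR), separate groups but a small step. Its call was lost without control replicates 2 (0.0801) or 3 (0.138), or without NFATc3-MKI replicates 1 (0.0544) or 3 (0.0799), by edgeR. Il4ra was at 7.44, 8.12 and 6.93 CPM and at 12.0, 12.4 and 16.5 CPM (0.86 ± 0.18, adjusted p = 0.000777 by edgeR), without overlap.

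Of the 5 members tested in that set, 4 rose and 0 fell, where 33.3% of all genes were called and 16.5% rose. Groups without overlap, as seen for these 4, were found at 45.8% of all genes. Irf4 was at 2.39, 2.78 and 3.17 CPM in the controls and 2.97, 4.62 and 4.50 CPM with the knock-in label (0.53 ± 0.28, adjusted p = 0.156 by edgeR), with overlap. Arg1 had 17 counts over the 3 controls and 4 over the 3 knock-in libraries, at 0.266, 0.696 and 1.06 CPM against 0.238, 0.215 and 0 CPM. All its knock-in libraries were below all controls, and the two-sided exact permutation p was 0.1, the smallest that 3 against 3 libraries allow. Mrc1 had 2 counts against 1, and Chil3, Cd163 and Retnla had none in either group, which allows up to 0.122 CPM in the controls and 0.114 CPM with the knock-in label.

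In cells labelled ASK1-MKI, the 3 classical members fell together with Arg1, Cd163 and Mrc1. Ptgs2 was at 32.6, 33.8 and 34.2 CPM in the controls and 2.70, 3.70 and 1.97 CPM with the knock-in label, 11.9-fold lower (log2 change −3.58 ± 0.11, adjusted p = 1.40e-60 by edgeR). Arg1 was at 16.4, 17.1 and 14.7 CPM against 1.44, 1.04 and 1.31 CPM, 12.7-fold lower (−3.66 ± 0.15, adjusted p = 3.43e-47 by edgeR). Ptgs2 and Arg1 are among the 0.817% of tested genes that fell by more than 3 on the log2 scale in this comparison. Nos2 was at 38.4, 34.6 and 39.3 CPM against 10.4, 10.3 and 8.22 CPM (−1.96 ± 0.08, adjusted p = 1.10e-47 by edgeR). Acod1, the member with the highest level, was at 1256, 1231 and 1297 CPM against 537, 540 and 543 CPM (−1.22 ± 0.02, adjusted p = 3.90e-91 by edgeR). Each of the 4 had all knock-in libraries far below all controls. The libraries of this set spread little: edgeR's common coefficient of variation was 0.0214, against 0.0892 in the NFATc3-MKI set and 0.208 in the livers. The small p-values rest on that spread, and whether it is technical is not known.

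The 2 scavenging receptors changed less. Mrc1 was at 79.6, 86.4 and 79.2 CPM in the controls and 65.4, 73.1 and 65.7 CPM with the ASK1-MKI label (−0.26 ± 0.04, adjusted p = 6.34e-08 by edgeR). Cd163 was at 2.70, 4.38 and 3.45 CPM against 2.57, 1.85 and 1.97 CPM (−0.72 ± 0.20, adjusted p = 0.00170 by edgeR). Neither overlapped, though the lowest Cd163 control was next to the highest knock-in library. The remaining alternative genes did not pass: Chil3 was at 38.5, 34.4 and 39.6 CPM against 40.2, 41.0 and 39.6 CPM (0.10 ± 0.06, adjusted p = 0.132 by edgeR). Il4ra was at 92.5, 86.2 and 92.5 CPM against 91.2, 95.1 and 89.0 CPM (0.02 ± 0.04, adjusted p = 0.689 by edgeR). Irf4 was at 1.57, 0.979 and 1.96 CPM against 0.690, 0.868 and 1.37 CPM (−0.63 ± 0.30, adjusted p = 0.0764 by edgeR), and was called without control replicate 2 (−0.85, 0.0215) or ASK1-MKI replicate 3 (−0.95, 0.0228). Without control replicate 3 it was at −0.38 (0.407). Retnla had no count, which allows up to 0.0556 CPM in the controls and 0.0600 CPM with the knock-in label.

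Of the 9 members tested in the ASK1-MKI set, 6 fell and 0 rose, where 49.1% of all genes were called and 24.5% fell. Groups without overlap, as seen for these 6, were found at 54.5% of all genes. The 3 classical members rose in the NFATc3-MKI set and fell in the ASK1-MKI set, which 306 of the 10063 genes tested in both tables did (3.04%). Of the 1906 genes that rose with the NFATc3-MKI label, 16.1% fell with the ASK1-MKI label. The 2 changes come from tables with separate controls, and no test between them was made.

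**Figure D3:**
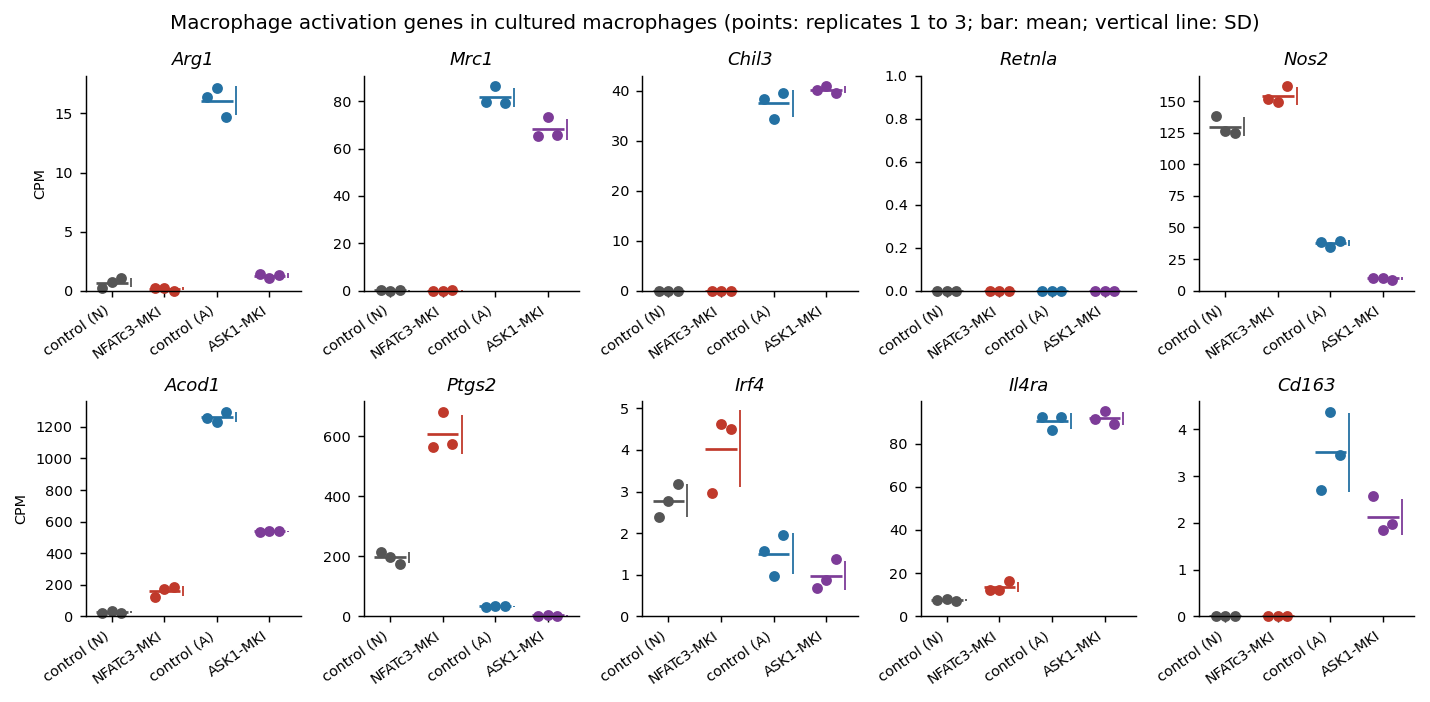
CPM of the macrophage activation genes in each of the 12 culture libraries on a linear axis from 0, with controls and knock-in libraries of the 2 sets along the horizontal axis, a bar at each group mean and a vertical line of 1 SD either side (cut at 0). Ptgs2 lies at 176 to 214 CPM in the controls of the NFATc3-MKI set and at 32.6 to 34.2 CPM in those of the ASK1-MKI set.

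Markers of other cells moved with the ASK1-MKI label as well, where 24.6% of all genes rose and 24.5% fell. Of 8 pan-macrophage markers 6 rose, among them Mertk (295 ± 4.18 against 208 ± 5.98 CPM) and Adgre1 (3307 ± 32.7 against 2691 ± 27.9 CPM), and Csf1r fell (1337 ± 17.0 against 1520 ± 14.0 CPM), with sums of 33616 to 35956 CPM in the controls and 35960 to 37963 CPM with the label. Of 5 Kupffer cell markers tested 4 fell, with sums of 1093 to 1117 and 506 to 519 CPM and the defining marker Clec4f at 0 in both groups. Of 6 monocyte markers 2 rose and 4 fell (sums 421 to 433 and 688 to 719 CPM), and of 4 neutrophil markers 3 fell (215 to 219 and 159 to 164 CPM). The dendritic cell marker Itgax, 1 of 2 tested, rose from 11.7 ± 0.474 to 61.6 ± 1.41 CPM, with sums of 13.2 to 13.7 and 61.0 to 63.6 CPM and Cd209a at 0 in both groups. Of 4 tested B and plasma cell markers Cd79a, Cd79b and Ms4a1 fell and Jchain rose (sums 10.4 to 11.1 and 7.91 to 9.37 CPM). All 3 tested markers of eosinophils, basophils and mast cells fell, with sums of 12.6 to 13.2 and 2.92 to 3.51 CPM. Their part in the member values was not tested. With the NFATc3-MKI label, where 16.5% of all genes rose, 5 of 7 tested pan-macrophage markers did, with sums of 1524 to 1628 and 1941 to 2130 CPM. Spp1, a secreted matrix protein on the cholangiocyte list that macrophages make too, rose from 4248 ± 279 to 19159 ± 2280 CPM, while 4 other markers of that list (Cftr, Epcam, Krt19 and Sox9) were at 0 in both groups. Itgax rose from 2.59 ± 0.972 to 5.41 ± 0.780 CPM, a call lost without control replicate 3 (log2 change 0.82, adjusted p = 0.0526 by edgeR), with dendritic cell sums of 5.05 to 6.91 and 7.31 to 8.19 CPM. The part of these cells in the member values was not tested.

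The promoters of Ptgs2 and Acod1 are shown because these genes rose in one culture set and fell in the other. The windows come from RefSeq (GRCm38.p6, the assembly of mm10), which held 8 of the 10 members and not Arg1 or Nos2. Each runs 5′ to 3′ on the plus strand up to the base before the annotated gene. Capitals mark matches, searched on both strands, to GGAAAA (the core bound by NFAT factors) or to GGG and CC with any 5 bases between them. The latter is a loose NF-kB type pattern that leaves the middle bases free, so a match need not be an NF-kB site. The Ptgs2 window is chr1:150099781-150100030 and the Acod1 window is chr14:103046762-103046976.
Ptgs2: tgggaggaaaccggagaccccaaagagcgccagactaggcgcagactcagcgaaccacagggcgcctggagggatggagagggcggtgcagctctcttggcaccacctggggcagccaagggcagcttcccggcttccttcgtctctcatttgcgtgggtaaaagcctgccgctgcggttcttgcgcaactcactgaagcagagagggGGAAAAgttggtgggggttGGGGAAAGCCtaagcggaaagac
Acod1: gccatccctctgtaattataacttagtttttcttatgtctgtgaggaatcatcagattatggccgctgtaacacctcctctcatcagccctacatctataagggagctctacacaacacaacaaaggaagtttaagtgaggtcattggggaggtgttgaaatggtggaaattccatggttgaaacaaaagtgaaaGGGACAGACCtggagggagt
In Ptgs2 the matches were GGAAAA at −42 to −37 and GGGGAAAGCC at −23 to −14 from the RefSeq start, and in Acod1 GGGACAGACC at −55 to −46. Over the 250 bases before the start, GGAAAA was held by 4 of the 8 members (Mrc1, Chil3, Retnla and Ptgs2) and by 20.4% of 32851 windows of this length, and the NF-kB type by 6 of 8 and by 45.8% of windows. The STAT6 type, TTC and GAA with any 4 bases between, was in 1 of 8, Retnla (TTCACAAGAA at −145 to −136), and in 5.85% of windows. The AP-1 type TGANTCA was in 0 of 8 and in 6.75% of windows. Matches are descriptions of letters, not of binding.

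Other genes of classical signalling and products rose with the NFATc3-MKI label and went both ways with the ASK1-MKI label. Of 19 tested 9 rose and 0 fell with the NFATc3-MKI label, where 16.5% of all genes rose, and 9 or 10 rose with each library left out. Interleukin-6 (Il6) rose from 0.489 ± 0.125 to 6.00 ± 1.20 CPM (log2 change 3.59 ± 0.37), Socs3 from 73.2 ± 8.76 to 206 ± 32.0 CPM (1.49 ± 0.11), the chemokine Ccl5 from 35.6 ± 1.98 to 84.5 ± 9.85 CPM (1.25 ± 0.10) and Tnf from 265 ± 5.11 to 451 ± 31.2 CPM (0.77 ± 0.08). The median of the list was 0.44 against −0.00 over all genes. With the ASK1-MKI label, 12 of 24 fell and 8 rose, where 24.5% of all genes fell and 24.6% rose, with a median of −0.16 against 0.00. Il6 fell from 15.6 ± 0.996 to 0.425 ± 0.218 CPM (−5.19 ± 0.19), the glucose transporter Slc2a1 from 132 ± 6.32 to 69.6 ± 1.65 CPM (−0.93 ± 0.04) and the NAD-consuming enzyme Cd38 from 201 ± 4.56 to 129 ± 2.17 CPM (−0.65 ± 0.03), while the interferon-induced chemokine Cxcl9 rose from 4.67 ± 0.885 to 25.1 ± 1.36 CPM (2.42 ± 0.10).

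**Figure D4:**
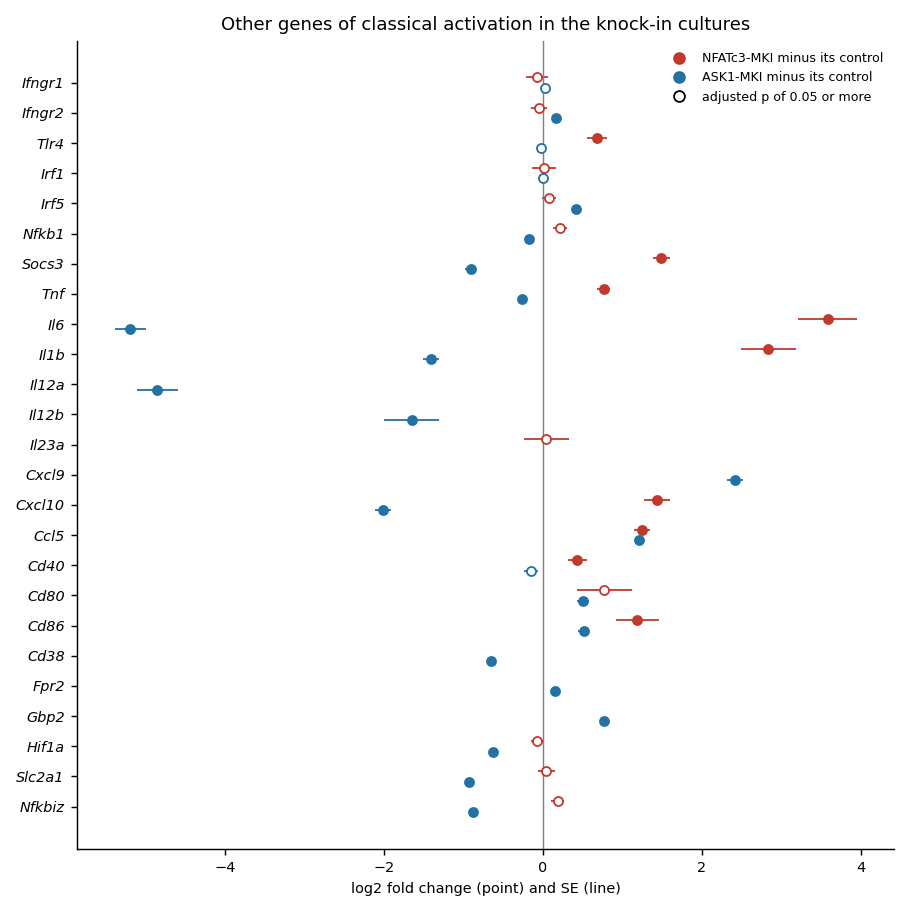
Log2 changes of the classical activation list in the 2 culture sets, NFATc3-MKI against control and ASK1-MKI against control, with filled points where edgeR's adjusted p is under 0.05. Il6 is at 3.59 in the former and −5.19 in the latter.

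Of the enzymes that share substrates or products with the members, 6 of 10 prostaglandin genes and 6 of 10 arginine and nitric oxide genes were called with the ASK1-MKI label, against 49.1% of all genes. With the NFATc3-MKI label, where 16.5% of all genes rose and 16.8% fell, the counts were 4 of 8 and 6 of 12. Prostaglandin synthesis starts with Pla2g4a, which frees arachidonic acid, and ends for prostaglandin E2 with Ptges. With the NFATc3-MKI label Pla2g4a rose from 108 ± 9.20 to 176 ± 6.02 CPM (0.71 ± 0.09) and Ptges from 1.30 ± 0.127 to 4.15 ± 0.590 CPM (1.66 ± 0.32), among 3 of 8 that rose and 1 that fell. With the ASK1-MKI label Ptges fell from 164 ± 6.29 to 62.2 ± 2.36 CPM (−1.40 ± 0.04) while Pla2g4a rose from 66.3 ± 1.66 to 111 ± 3.91 CPM (0.75 ± 0.04), among 3 of 10 that fell and 3 that rose. Of the arginine and nitric oxide genes, 5 of 12 rose and 1 fell with the NFATc3-MKI label. Odc1 rose from 1232 ± 167 to 3238 ± 385 CPM (1.39 ± 0.11) and Gch1, which starts the synthesis of a cofactor of nitric oxide synthase, from 46.8 ± 2.44 to 71.2 ± 4.85 CPM (0.60 ± 0.10). With the ASK1-MKI label 4 of 10 fell and 2 rose. The second arginase Arg2 fell from 6.93 ± 0.655 to 3.20 ± 0.141 CPM (−1.12 ± 0.15) and Odc1 rose from 47.5 ± 3.54 to 84.3 ± 1.13 CPM (0.83 ± 0.04).

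On the alternative side, 2 of 11 tested genes of interleukin-4, interleukin-13 and STAT6 signalling rose and 2 fell with the NFATc3-MKI label. Of all genes, 16.5% rose and 16.8% fell with that label, and 24.6% rose and 24.5% fell with the ASK1-MKI label. Kdm6b fell from 46.7 ± 6.66 to 28.7 ± 4.44 CPM (−0.71 ± 0.13) and the kinase Jak3 from 78.8 ± 1.83 to 53.6 ± 11.5 CPM (−0.56 ± 0.12), while Il13ra1 and Il2rg, partners of Il4ra in its receptors, rose (0.41 ± 0.11 and 0.33 ± 0.10). The call of Il13ra1 was lost without control replicate 3 (0.34), and that of Il2rg without control replicate 3 (0.29) or NFATc3-MKI replicate 3 (0.30). With the ASK1-MKI label 6 of 13 rose and 4 fell: the factor Egr2 rose from 11.2 ± 0.533 to 21.8 ± 1.38 CPM (0.96 ± 0.08) and Il13ra1 from 35.8 ± 2.12 to 46.1 ± 0.416 CPM (0.36 ± 0.05), and the factor Klf4 fell from 14.5 ± 0.466 to 5.48 ± 0.242 CPM (−1.40 ± 0.11) and Kdm6b from 12.8 ± 1.18 to 8.06 ± 0.275 CPM (−0.66 ± 0.10). Of other alternative products, 3 of 4 tested rose with the NFATc3-MKI label, the lipid scavenger receptor Cd36 (1.61 ± 0.612 to 9.13 ± 1.37 CPM), the lectin Clec10a (3.42 ± 0.374 to 9.01 ± 0.587 CPM) and the chemokine Ccl22 (1.13 ± 0.250 to 3.03 ± 0.129 CPM). With the ASK1-MKI label 4 of 10 fell and 1 rose. Slc7a2 fell from 130 ± 1.51 to 41.4 ± 2.22 CPM (−1.65 ± 0.04) and Ccl22 from 3.17 ± 0.634 to 0.266 ± 0.265 CPM (−3.58 ± 0.35). Of the members' paralogs, Irf8 rose with either label (0.85 ± 0.09 and 0.22 ± 0.03), and Cd5l, which like Cd163 carries scavenger receptor domains, fell with the ASK1-MKI label (−1.57 ± 0.04).

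**Figure D5:**
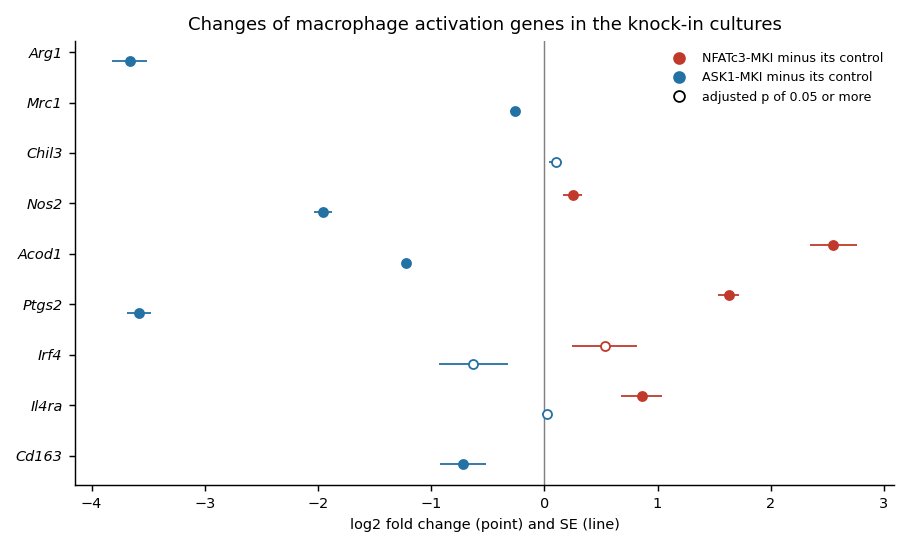
Log2 changes of the tested macrophage activation genes in the 2 culture sets, with bars of 1 SE and filled points where edgeR's adjusted p is under 0.05. Acod1 is at 2.55 with the NFATc3-MKI label and −1.22 with the ASK1-MKI label, and Arg1 at −3.66 with the latter.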

How the data were processed

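Poly-A RNA of 16 livers and 12 culture libraries was made into dUTP strand-specific libraries, per the labels' protocols, and aligned with HISAT2 to mm10, per the submitters' processing notes. How reads were counted (program, gene models, strand) is not given in the sources used here. Deposited by the authors for the livers are expected counts per gene symbol, of which 85.42% were whole, and they were rounded here to whole numbers. The 2 culture tables deposited by the authors hold raw counts per Ensembl gene. Each of the 3 tables was fitted by itself, all 16 livers in one fit, with no column left unmapped. Names and positions come from the GENCODE M21 annotation of mm10, which matched 16815, 52073 and 21851 features.

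Genes were filtered with edgeR's filterByExpr (edgeR 4.0.16, R 4.3.3), which left 13309, 13363 and 11380, and scaled between libraries by TMM (factors 0.875 to 1.20, 0.978 to 1.02 and 0.990 to 1.01). The robust quasi-likelihood F test was adjusted by Benjamini-Hochberg over all genes of a comparison, and called means an adjusted p under 0.05. Log2 differences are the first group minus the second, with the SE as their size over the square root of F. Members under the filter had an exact permutation test, two-sided, of log2 CPM (prior count 2, 20 tests). Limits for genes without reads use 3 counts over a group and cover counting error only. On data made with known 2-fold changes at 200 genes, the fits recovered 69.8% for NFATc3-MKO against Lyz2-Cre (13309 genes), 32.5% for the interaction (13309), 82.7% for NFATc3-MKI (13363) and 96% for ASK1-MKI (11380). False calls were 0, 3, 10 and 6 in the same order. The changed genes were picked at random and counts were drawn independently, so these shares need not hold for members with low or variable counts.

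The members and the 6 pathway and 13 marker lists were chosen with earlier results of these data known. A gene of the classical list and 1 of a marker list are not reported here and were left out of counts, sums and medians. All members are named. From each pathway list up to 4 called genes with the smallest p are eligible for naming, or the 2 most abundant where none is called, and for each member tested in livers the 2 genes of highest correlation. Same-numbered libraries of MDKO and Lyz2-Cre deviated together (r = 0.24 to 0.53 in all 4 pairs), so that these numbers were taken to pair them. In each other comparison at least 1 pair was under 0.1 (r = −0.21 to 0.56 for NFATc3-MKO against Lyz2-Cre, and 0.04 to 0.20 for NFATc3-MKO against ASK1-MKO), and the numbers were not taken to pair them. Alternatives were DESeq2 1.42.0, limma 3.58.1 voom with quality weights, DESeq2 size factors, no filter, only the 2 groups compared, an adjusted p under 0.1, a prior count of 0.5, a replicate block and each library left out. Raw library totals as scaling and some further settings were added after seeing the data.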

Additional observations from a re-analysis of the deposited data

Results flagged for a closer look

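In a group of 4 livers a value was picked out where its gap to the nearest other liver, over the range of the group, passed Dixon's limit for 4 values. Of 39 groups examined 10 did. The limit lets about 1 in 20 pass by chance only for normally spread values, which CPM near 0 are not. A group with reads in only 1 liver passes whatever the count. The 10 therefore cannot be read as an excess over chance, and the values of different genes in a liver are not independent. Replicate 2 gave 7 of them, 6 in 3 livers: Acod1 at 1.83 CPM in Lyz2-Cre, 8.21 CPM in NFATc3-MKO and 0.941 CPM in MDKO, Nos2 at 0.595 CPM in Lyz2-Cre, and Ptgs2 at 1.13 CPM in NFATc3-MKO and 0.0818 CPM in MDKO. These 3 livers also held the highest summed monocyte markers of their groups, at 34.7, 62.8 and 24.4 CPM. The part of such cells in these values was not tested. In livers labelled ASK1-MKO, Mrc1 was low in replicate 4 (30.6 CPM, the others 49.2 to 50.9), Chil3 was high in replicate 1 (1.06 CPM, the others 0.233 to 0.276) and Retnla was high in replicate 2 (0.367 CPM, the others 0). Retnla in Lyz2-Cre replicate 1 (0.0402 CPM) is 1 count against 0.

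The change that went with the ASK1 label differed with the NFATc3 label for Cd163 (interaction log2 2.42 ± 0.62) and Il4ra (0.51 ± 0.15), by the interaction term of the fit to all 16 livers.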

How the results depend on the processing

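For NFATc3-MKO against Lyz2-Cre, 1 member was called in the fit as reported, 3 at an adjusted p under 0.1, 3 by DESeq2, 4 by voom, and 0 without a filter or with only the 2 groups compared. Leaving out single livers gave 0 to 2. For ASK1-MKO against Lyz2-Cre the 0 calls became 1 at an adjusted p under 0.1 and 1 by voom. For MDKO against NFATc3-MKO the 1 call became 2 at an adjusted p under 0.1, 2 by DESeq2, 4 by voom and 0 with only the 2 groups compared, and 0 to 3 with single livers left out. For MDKO against ASK1-MKO voom called 2. For NFATc3-MKO against ASK1-MKO the 1 call became 2 at an adjusted p under 0.1 and 0 to 4 with single livers left out, and the interaction's 2 calls became 4 at an adjusted p under 0.1, 4 by voom and 1 to 3. In the cultures the counts were 3 to 4 for NFATc3-MKI and 6 to 7 for ASK1-MKI with single libraries left out. The cause of these moves was not tested. At an adjusted p under 0.1 more of all 13309 liver genes were called too. They were 2088 for NFATc3-MKO and 1842 for ASK1-MKO against Lyz2-Cre, and 2006 for MDKO against NFATc3-MKO. For NFATc3-MKO against ASK1-MKO they were 2817, and for the interaction 3127. For MDKO against NFATc3-MKO and the interaction, the shares of all genes called by DESeq2 and voom are not given. The member counts by those tools can therefore not be judged for these comparisons. The permutation difference of Retnla between NFATc3-MKO and ASK1-MKO changed from −0.01 to 0.20 log2 with a prior count of 0.5. Alternatives were counted only for log2 changes of single members with an unadjusted p under 0.05 by edgeR in the fit as reported. Of these values, 498 kept their direction and side of the threshold, 32 passed it, 35 no longer did and 0 reversed. Changes above that p, which could reverse more easily, were not counted.

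With the replicate number as a block, 2 members were called for MDKO against NFATc3-MKO, 1 for NFATc3-MKO against Lyz2-Cre (Chil3 at an adjusted p of 0.0286 by edgeR, with Cd163 at 0.0776) and 0 for MDKO against Lyz2-Cre, also in a fit of those 2 groups alone that was added after seeing the data. The block moved no other count by over 1.5 times. Retnla, Nos2 and Ptgs2 were near the limit of detection in livers, where most libraries held under 3 counts.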
